A study of Mus musculus with 126 samples.

Results

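Immediate early genes were chosen by name and read in all 126 libraries of a series on daily rhythms in the mouse colon. They were Fos, Fosb, Jun, Junb, Egr1, Egr2, Nr4a1, Arc, Ier2 and Atf3, 10 of the 24883 rows in each deposited table. No measured value entered the rule, though the genes were proposed with earlier results of these data known. The question put to them was their level and their pattern over the day, relative to genotype, dietary salt and the time of feeding.

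The series holds 7 conditions with 18 libraries each, 3 for each of 6 zeitgeber times, or ZT, counted in hours from lights on: ZT0, ZT4, ZT8, ZT12, ZT16 and ZT20. In 3 conditions mice ate normal chow freely: wild type, Bmal1 knock out and MR knock out, where MR is the mineralocorticoid receptor. The Bmal1 loss is described as gut-specific and the knock outs as 8 to 12 weeks old. The driver of the deletion, and the age of wild type, are not stated in the labels used. In the other 4 conditions 8-week-old male C57BL/6 mice, kept in 12 h of light and 12 h of darkness, received a low salt or a high salt diet by night only or by day only. The clock hours of food access are not stated in the labels used. Replicates are separate libraries. The labels do not always say whether each came from another animal, so the p-values measure the spread between these samples, which may be technical.

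Immediate early genes are switched on within minutes of a stimulus, without new protein synthesis, by transcription factors already present in the cell, such as serum response factor and CREB. Growth factors, calcium, mechanical strain, hormones and cell stress are among the known triggers. Their transcripts decay fast, and many of the products are themselves transcription factors that set off a later wave of genes. FOS, FOSB, JUN and JUNB are subunits of the AP-1 dimer and ATF3 is a stress-responsive partner of it. EGR1 and EGR2 are zinc finger factors, and NR4A1 is an orphan nuclear receptor. ARC is a capsid-like protein known from synapses, and IER2 is a small nuclear protein.

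Promoter sequences are shown for 4 genes because they carry the binding motifs through which such genes are classically induced. RefSeq windows on GRCm38.p6, 250 bases before to 50 after each annotated start, were matched by symbol for 7 of the 10 genes. Both strands were searched. TGACG, the core of CREB sites, was found on either strand in 6 of the 7: Fos, Fosb, Junb, Egr2, Nr4a1 and Atf3. It occurs in 17.7% of all 32817 windows. The serum response element core, the CArG box, was found in Egr2 and in 1.47% of windows. GCGNGGGCG, the EGR core, was found in Fosb and Nr4a1 and in 4.7% of windows. The E-box CACGTG, which the clock factor BMAL1 with CLOCK can bind, was found in Egr2 and in 6.02% of windows. Egr2 had 5 windows and each other matched gene 1, so a match per gene is not on the footing of a share per window. The E-box lies only in an Egr2 window that is not printed, with its 150 bases at chr10:67535349-67535498. TGANTCA, the AP-1 core, and AAAGGTCA, the NR4A1 element, were found in no member window, against 6.75% and 1.34% of windows. No printed match overlaps another. A match is a description of letters in these windows. The 150 bases before the start are printed 5′ to 3′ on the gene's strand, with matches to TGACG, to the CArG box and to GCGNGGGCG, or their reverse complements, in capitals. Fos lies at chr12:85473740-85473889 on the plus strand, Junb at chr8:84978749-84978898 on the minus strand, Egr2 at chr10:67537719-67537868 and Nr4a1 at chr15:101266696-101266845, both on the plus strand. None of these stretches overlaps an annotated exon.
Fos: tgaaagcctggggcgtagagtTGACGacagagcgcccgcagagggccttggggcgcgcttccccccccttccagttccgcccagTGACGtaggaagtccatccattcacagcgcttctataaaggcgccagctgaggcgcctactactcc
Junb: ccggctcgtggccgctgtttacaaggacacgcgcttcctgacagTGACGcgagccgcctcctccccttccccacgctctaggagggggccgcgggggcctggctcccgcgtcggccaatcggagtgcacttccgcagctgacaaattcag
Egr2: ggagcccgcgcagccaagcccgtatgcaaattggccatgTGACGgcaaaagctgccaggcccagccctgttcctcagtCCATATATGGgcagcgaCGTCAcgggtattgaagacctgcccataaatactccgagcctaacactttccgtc
Nr4a1: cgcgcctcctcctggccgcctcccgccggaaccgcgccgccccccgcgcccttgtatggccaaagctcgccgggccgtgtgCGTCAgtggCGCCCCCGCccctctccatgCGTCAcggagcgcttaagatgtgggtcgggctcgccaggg

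Values are FPKM (fragments scaled to transcript length and to all mapped fragments), divided here by a scale factor for each library so that most genes stay level. A level difference is the difference between 2 conditions in mean log2(rescaled FPKM + 0.5), averaged over the 6 times, and ± gives its standard error. It was tested with limma and adjusted by Benjamini-Hochberg over the 11377 rows tested, with 0.05 as the threshold for a call. All 10 genes were among the tested rows, and the lowest condition mean of any of them was 1.36 FPKM, for Arc in MR knock out. No library listed any of the 10 at 0. Estimated from the steps that single fragments leave in low genes, the libraries held about 19900000 to 45600000 mapped fragments, with a median of 32300000. The thinnest value was Egr2 in MR knock out at ZT20, replicate 2, at 1 estimated fragment, and Arc stood at 16 fragments in the same library.

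The labels say colon. Summed over 10 epithelial markers (Epcam, Vil1, Krt20 and others) the libraries held 7526 to 19070 FPKM. The 6 smooth muscle markers summed to at most 4.69 FPKM, the 10 neuronal and glial markers to at most 1.59, the 5 fibroblast markers to at most 12.7, the 4 endothelial markers to at most 1.71 and the 6 leukocyte markers to at most 12.9. Cnn1 of muscle, Gfap of glia and Kdr of endothelium were at 0 in at least 1 library of every condition. In bulk RNA, fewer cells of a type and less RNA per cell cannot be told apart. Arntl, which encodes BMAL1, was between 2.87 and 6.28 FPKM in Bmal1 knock out (median 4.02) and between 2.25 and 19.2 in wild type (median 8.27). Nr3c2, which encodes MR, was between 1.66 and 5.33 FPKM in MR knock out (median 2.79) and between 7.05 and 23.2 in wild type (median 14.9), with no overlap. Whether these values include the deleted exons is not stated in the labels used. Nr3c2 was below its wild type median elsewhere too: between 3.22 and 13.9 FPKM in Bmal1 knock out (median 4.80), with medians of 6.80 to 8.88 in the 4 feeding groups. The scale factor was under 0.6 in 14 libraries, here called low-scale. In Bmal1 knock out they numbered 9: every library of ZT12 and ZT16, and others at ZT0 and ZT20. In high salt night fed they numbered 5, at ZT8 and ZT12.

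Of the 10, Fos had the highest level in wild type colon, from 267 to 578 FPKM over the 18 wild type libraries, with a median of 436. Jun had a median of 190, Ier2 173, Atf3 140, Egr1 138, Junb 106 and Fosb 82.6. Nr4a1 was lower at 31.1, Arc at 7.53 and Egr2 at 3.39 FPKM. Neighbours in this order overlapped in their libraries, with 2 exceptions. The lowest Fos library lay above the highest Jun library (208 FPKM), and the lowest Nr4a1 library (17.0 FPKM) above the highest Arc library (9.60). The lowest wild type library for 6 of the 10, Fos, Fosb, Jun, Egr1, Nr4a1 and Arc, was ZT8 replicate 3.

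**Figure D1:**
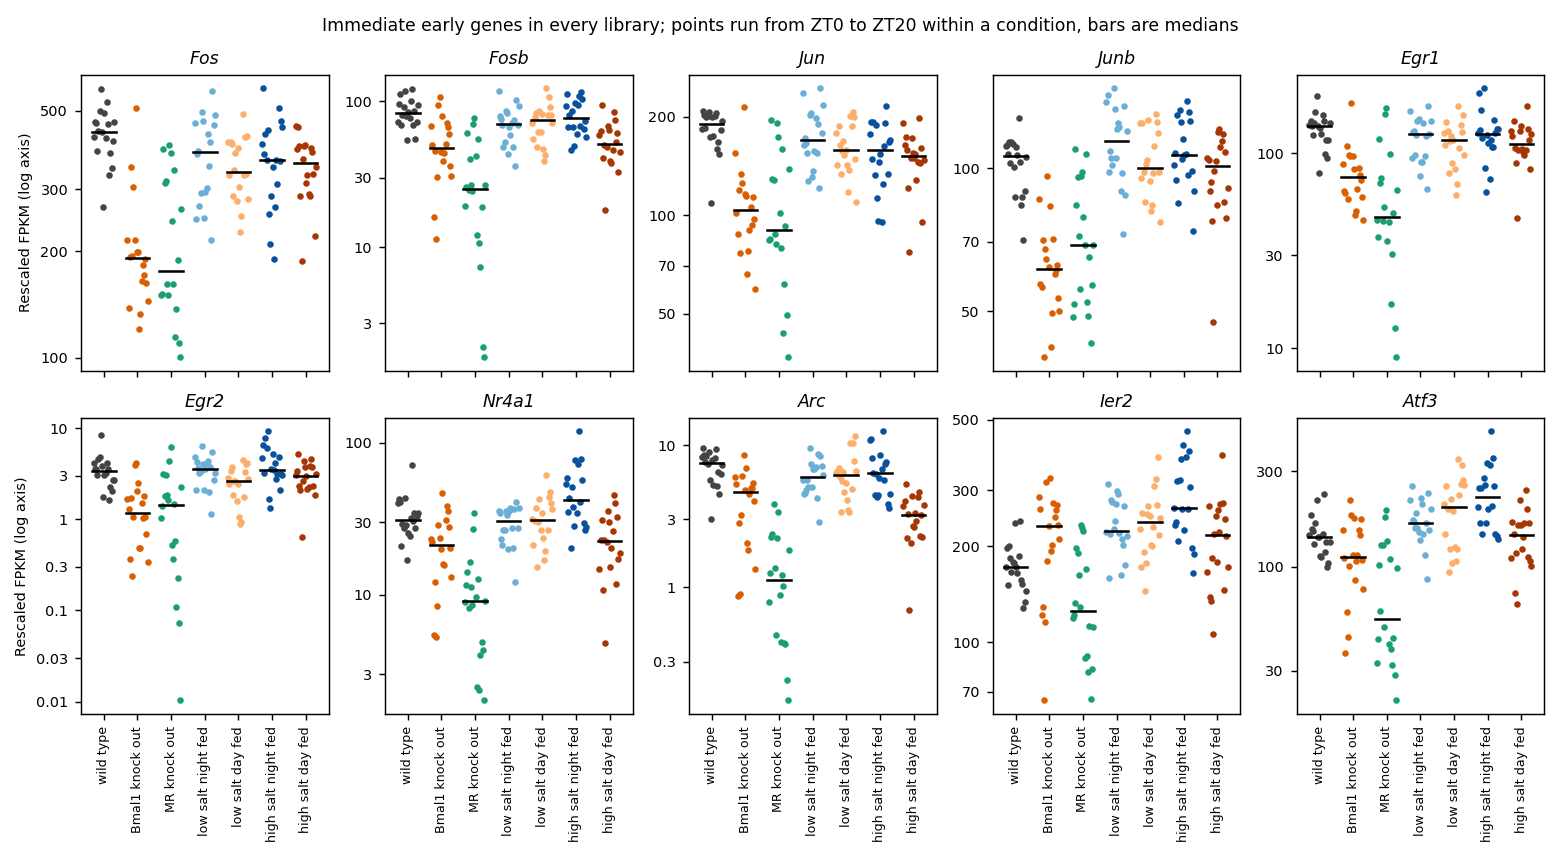
Rescaled FPKM of each gene (log axis) in all 126 libraries, 18 per condition, with points running from ZT0 to ZT20 and bars at the median. The MR knock out libraries reach lowest for 8 of the 10 genes, and the Bmal1 knock out libraries for Junb and Ier2.

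All 10 genes were lower in MR knock out than in wild type. This stands against 66% of tested genes called in either direction and 41.3% called lower in that comparison, so many other genes differed as well. The median difference of the 10 was -1.14 on the log2 scale, and that of all tested genes was -0.08. The order of size was Arc, Fosb, Nr4a1, Egr1, Egr2, Atf3, Fos, Jun, Junb, Ier2.

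Arc ranged from 0.160 to 3.84 FPKM in MR knock out (median 1.12) and from 3.03 to 9.60 in wild type (median 7.53). Only the uppermost MR knock out libraries reached the wild type range, and at 5 of the 6 times every knock out library lay below every wild type one. The difference was -2.21 ± 0.21 (adjusted p = 7.27e-11, limma). Fosb ranged from 1.76 to 76.2 FPKM in the knock out (median 25.2) and from 54.7 to 122 in wild type (median 82.6). Its difference was -1.96 ± 0.26 (adjusted p = 5.39e-08), with full separation at 5 of 6 times. Nr4a1 ranged from 2.03 to 34.5 FPKM (median 9.07) against 17.0 to 71.2 (median 31.1), a difference of -1.90 ± 0.21 (adjusted p = 1.42e-09). It too was separated at 5 times.

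The zinc finger factors followed. Egr1 ranged from 8.98 to 170 FPKM in MR knock out (median 47.2) and from 79.0 to 196 in wild type (median 138), a difference of -1.43 ± 0.20 (adjusted p = 1.6e-07). Egr2 ranged from 0.0103 to 6.18 FPKM (median 1.43) against 1.62 to 8.30 (median 3.39), a difference of -1.18 ± 0.21 (adjusted p = 1.12e-05). Ranges overlapped for both, and the 2 highest knock out libraries of each gene were replicates 2 and 3 of ZT8. Among the AP-1 genes Atf3 fell by 1.10 ± 0.21, Fos fell by 1.06 ± 0.15, Jun fell by 0.92 ± 0.15 and Junb fell by 0.55 ± 0.10. Ier2 had the smallest difference, -0.39 ± 0.12 (adjusted p = 0.00389). In every setting tried, and without any single library of the 2 conditions, all 10 stayed called and lower.

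Of 7 heat shock transcripts, which mark cell stress, 6 were lower in MR knock out, among them Hspa1a (-2.30) and Hspa1b (-2.09). Among all tested genes 41.3% were called lower and 66% in either direction. In Bmal1 knock out 1 of the 7 was lower and 1 higher, against 49.2% of tested genes called lower and 80.3% called in either direction there. The summed heat shock level had a median of 694 FPKM in MR knock out and 915 in wild type. The leukocyte marker sum had a median of 4.24 FPKM against 2.32, and the fibroblast sum 1.58 against 0.744. The part of these marker and heat shock levels in the result was not tested. A score of how far long transcripts stand above short ones in each library had a mean of 0.170 ± 0.105 (SD, n = 18) in wild type and 0.0091 ± 0.126 (SD, n = 18) in MR knock out. With that score in the model all 10 stayed called, with smaller values for 9: Fos stood at -0.61, Jun at -0.58, Junb at -0.34, Egr1 at -0.92 and Egr2 at -0.79, while Ier2 stood at -0.53.

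Bmal1 knock out was lower than wild type for 8 of the 10, against 80.3% of tested genes called in either direction and 49.2% called lower. The median of the 10 was -0.80 and that of all tested genes -0.13. Fos ranged from 121 to 509 FPKM (median 191) against 267 to 578 in wild type (median 436), a difference of -1.12 ± 0.15 (adjusted p = 3.98e-08). Outside ZT8, every Bmal1 knock out library lay below every wild type library at the same time, which makes 5 of the 6 times. Egr2 had the largest difference, -1.15 ± 0.21, with 0.240 to 4.13 FPKM against 1.62 to 8.30. Arc fell by 0.86 ± 0.21, Fosb fell by 0.84 ± 0.26, Jun fell by 0.81 ± 0.15, Egr1 fell by 0.79 ± 0.20, Nr4a1 fell by 0.75 ± 0.21 and Junb fell by 0.72 ± 0.10.

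Ier2 and Atf3 were not called in Bmal1 knock out. Ier2 ranged from 65.8 to 329 FPKM (median 232) against 129 to 240 in wild type (median 173), a difference of 0.24 ± 0.12 (adjusted p = 0.057). It became a call without any one of 8 libraries, with values of 0.25 to 0.30 (the largest without Bmal1 knock out ZT0 replicate 3), and turned to -0.66 with FPKM as deposited. Atf3 stood at -0.38 ± 0.21 (adjusted p = 0.0859) and became a call, at -0.45, without Bmal1 knock out ZT0 replicate 1. The transcript length score had a mean of -0.094 ± 0.136 (SD, n = 18) in Bmal1 knock out. With that score in the model 1 of the 10 was called, and Egr1 turned to 0.048. The share of all tested genes called with the score is not given here. The lower level in Bmal1 knock out and this difference between libraries cannot be told apart.

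**Figure D2:**
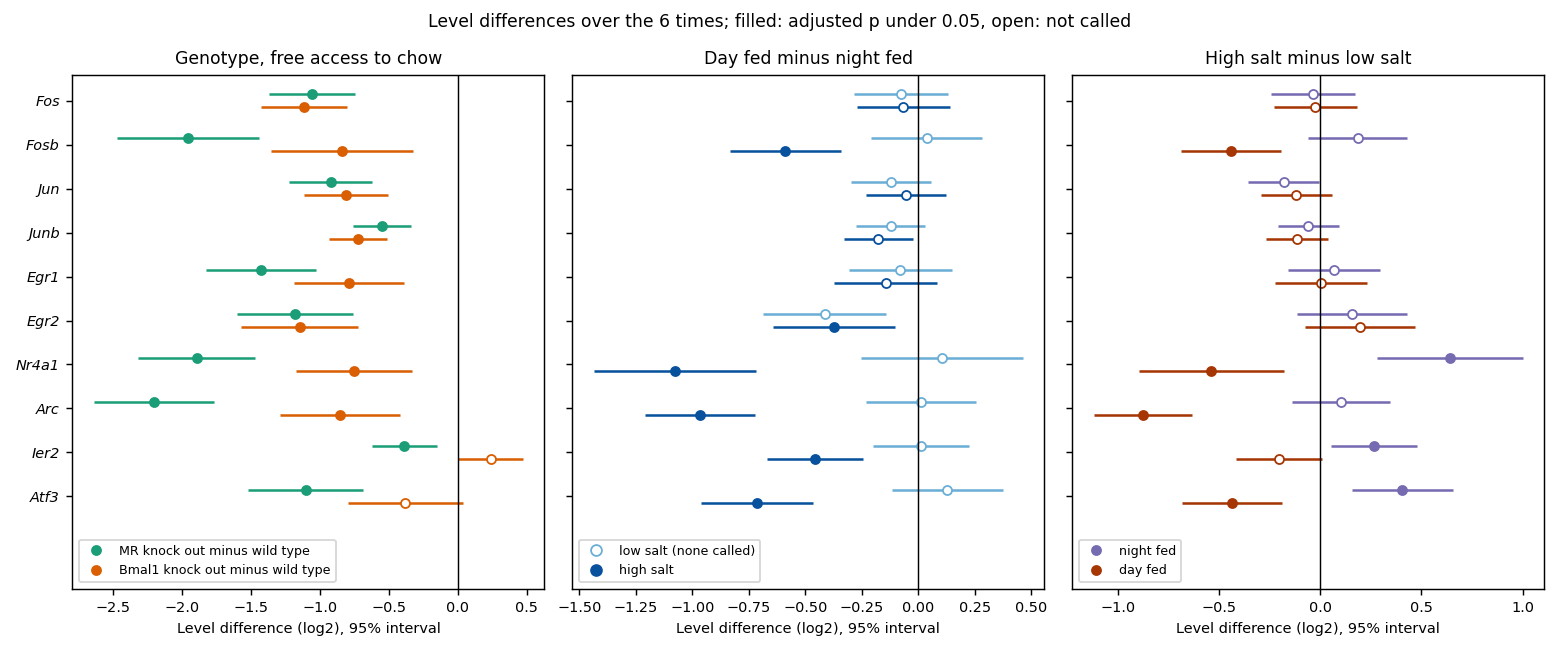
Level difference (log2) of each gene with its 95% interval, for genotype, feeding time and salt; filled points passed an adjusted p of 0.05 and open points did not. All 10 points lie left of 0 for MR knock out, and all 10 also do for day feeding on high salt, where those of Nr4a1, Arc, Atf3, Fosb, Ier2 and Egr2 are filled.

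Over the day, a rhythm was read as a 24 h cosine through the 6 time means and tested by limma (F test). The amplitude is the log2 distance from mean to peak. In wild type no member passed (0 of 10), against 17.7% of all tested genes, and none had an unadjusted p under 0.05. The wild type amplitudes ran from 0.02 (Fosb) to 0.36 (Egr2). Egr1 means, for example, stayed between 118 FPKM at ZT20 and 143 at ZT4. In low salt night fed mice, too, 0 of 10 passed, against 22.6%, with no unadjusted p under 0.05.

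In MR knock out all 10 passed, against 21.7% of tested genes, with peaks between ZT4.8 and ZT7.2. The test took 1 spread per gene from wild type and both knock outs together. The SD between libraries of one time had a median over the 10 of 0.757 in MR knock out, 0.530 in Bmal1 knock out and 0.316 in wild type. The shared spread understates that of MR knock out, so these p-values can be too small. The group of 3 libraries with the highest mean was ZT8 for 8 of the 10, and the lowest was ZT16 for 7 and ZT20 for the other 3. By the median of the 3 libraries the highest was ZT8 for 9. The lowest by the median was ZT20 for 8, ZT16 for 1 and ZT0 for 1, so the time of the low point depends on the summary. High and low points of other genes were not counted. Fosb had the largest amplitude, 1.36 (peak ZT6.9, adjusted p = 0.000771). Its libraries held 24.4, 70.4 and 76.2 FPKM at ZT8, then 10.6, 7.36 and 18.8 at ZT16 and 2.07, 1.76 and 26.6 at ZT20. The 2 lowest ZT20 libraries lay far below the third, so the time means rest on a wide spread. Egr2 had an amplitude of 1.15 (adjusted p = 0.000482), with 1.61, 4.32 and 6.18 FPKM at ZT8 and 0.579, 0.108 and 0.228 at ZT16. Its ZT8 and ZT16 libraries did not overlap.

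Egr1 held 52.6, 159 and 170 FPKM at ZT8 and 16.8, 30.3 and 49.1 at ZT16, again without overlap, with an amplitude of 1.05 (adjusted p = 0.000791). Nr4a1 held 8.55, 26.9 and 34.5 FPKM at ZT8 and 2.36, 4.01 and 4.87 at ZT16, an amplitude of 1.05 (adjusted p = 0.00142). At ZT8 its 2 higher libraries lay inside the wild type range. Atf3 (0.90), Arc (0.75), Ier2 (0.62), Jun (0.57), Fos (0.53) and Junb (0.35) had smaller amplitudes.

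These MR knock out calls depended on single libraries. Without replicate 2 of each time no member passed, and without replicates 1 or 3 the counts were 7 and 9. Leaving out ZT8 replicate 2 or ZT20 replicate 2 alone left 6 of 10, while Fosb, Egr1, Egr2, Nr4a1, Ier2 and Atf3 kept their calls without any single library. With FPKM as deposited, or with the MR knock out libraries fitted alone, 3 of 10 passed. The difference in rhythm from wild type, the test of whether the knock out differs, passed for 1 of 10, Nr4a1 (1.30 ± 0.29, adjusted p = 0.0463), against 0.835% of tested genes. For a rhythm difference the value is the length of its cosine and sine parts together, which is never negative. There ± gives the standard error of those parts and not of the length. An unadjusted p under 0.05 was reached by 7. The Nr4a1 call was lost without any one of 24 of the 36 libraries, with values of 1.17 to 1.36 and an adjusted p of up to 0.119 (without wild type ZT16 replicate 1). Without MR knock out ZT20 replicate 3, Fosb (1.74) and Egr1 (1.21) passed as well.

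In Bmal1 knock out Nr4a1 (amplitude 0.78, peak ZT14.7, adjusted p = 0.00674) and Ier2 (0.49, peak ZT15.6, adjusted p = 0.00225) passed, 2 of 10 against 56.7% of tested genes. Ier2 means ran from 104 FPKM at ZT4 to 261 at ZT16, and Nr4a1 means from 8.63 at ZT4 to 34.8 at ZT16. Every Bmal1 knock out library of ZT12 and ZT16 was low-scale. Nr4a1 had a median of 27.7 FPKM in the 9 low-scale libraries and 19.8 in the other 9, and Ier2 261 and 179. Time of day and scale factor cannot be told apart for these peaks. Ier2 alone differed in rhythm from wild type (0.59 ± 0.16, adjusted p = 0.0185), 1 of 10 against 31.2%. That call was lost without Bmal1 knock out ZT4 replicate 2 (0.50, adjusted p = 0.0559) and without the low-scale libraries. Without replicate 2 of each time, no Bmal1 knock out rhythm passed.

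**Figure D3:**
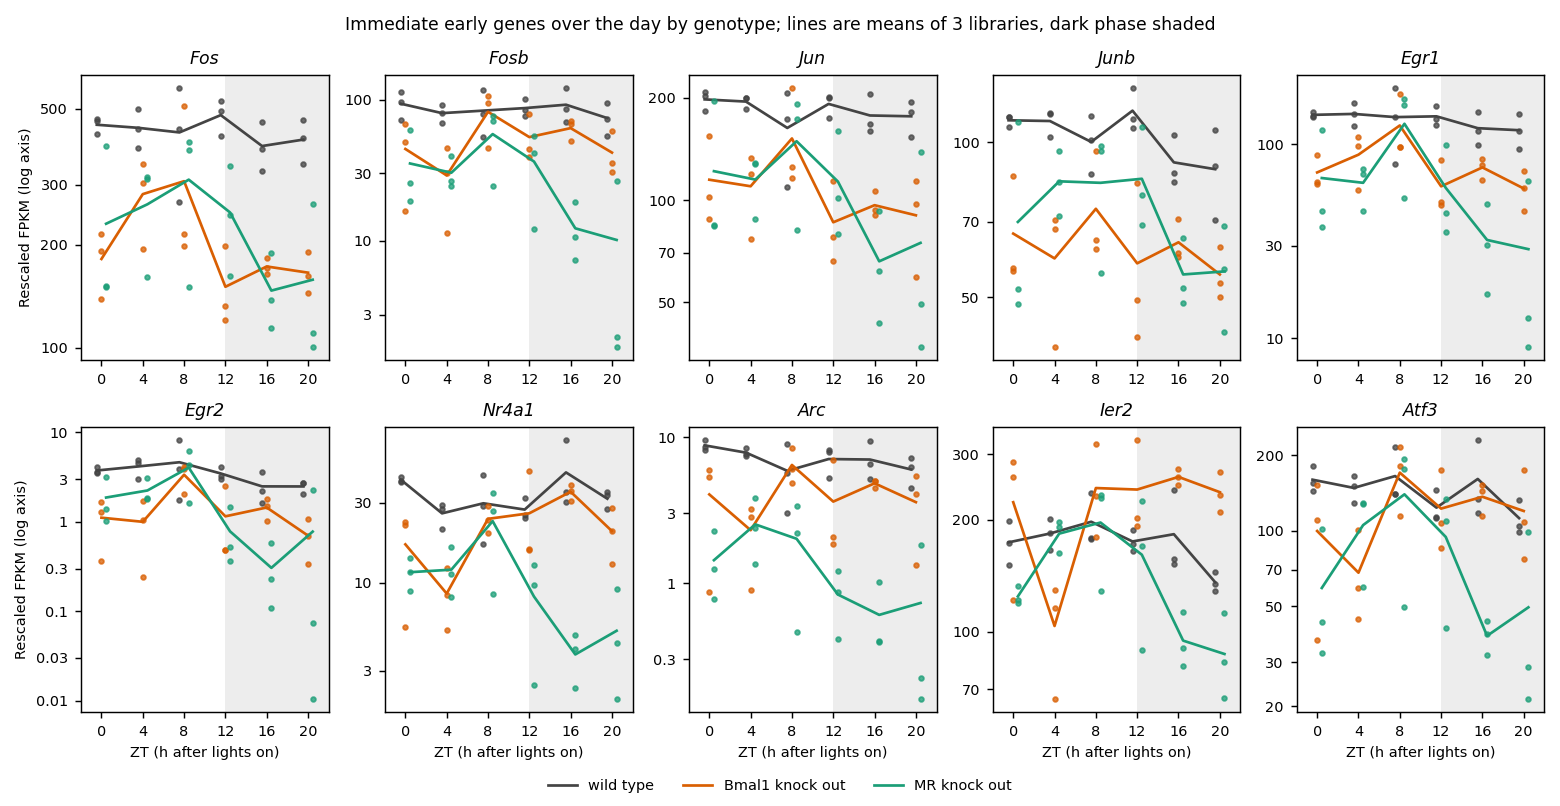
Rescaled FPKM (log axis) of each gene against ZT in wild type, Bmal1 knock out and MR knock out; points are libraries, lines join the means of 3 and the dark phase is shaded. No wild type line passed the rhythm test, and the MR knock out lines drop from ZT8 to ZT16 for all 10 genes.

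On the high salt diet the 2 feeding times differed for most of these genes. Day fed minus night fed on high salt was lower for 6 of 10, against 27.6% of tested genes called and 12.9% called lower. Nr4a1 showed the largest difference: 4.83 to 45.2 FPKM when day fed (median 22.5) and 20.3 to 119 when night fed (median 42.1), or -1.08 ± 0.18 (adjusted p = 8.4e-06, limma). Arc ranged from 0.689 to 5.29 FPKM when day fed (median 3.24) and from 3.58 to 12.5 when night fed (median 6.34), or -0.97 ± 0.12 (adjusted p = 1.22e-08). At 4 of the 6 times every day fed Arc library lay below every night fed one. Atf3 followed at -0.71 ± 0.12 (64.9 to 244 against 138 to 478 FPKM), then Fosb at -0.59 ± 0.12, Ier2 at -0.46 ± 0.11 and Egr2 at -0.37 ± 0.13. The Egr2 call (adjusted p = 0.0339) was lost without any one of 9 libraries, with values of -0.36 to -0.30.

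The other AP-1 genes and Egr1 were not called: Fos at -0.07 (95% interval -0.27 to 0.14), Jun at -0.06 (-0.23 to 0.12), Junb at -0.18 (-0.33 to -0.02) and Egr1 at -0.14 (-0.37 to 0.08). Junb became a call without any one of 3 libraries, at -0.21 to -0.20 (high salt day fed ZT4 replicate 1, high salt night fed ZT4 replicate 2, high salt night fed ZT16 replicate 1). With FPKM as deposited Fos, Jun and Junb were above 0, at 0.39, 0.40 and 0.28, while the median of all tested genes moved from 0.02 to 0.41 under that scaling.

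On low salt, day fed minus night fed called 0 of 10, against 3.33% of tested genes, and 1 of 10 had an unadjusted p under 0.05. Arc ranged from 3.40 to 11.6 FPKM when day fed (median 6.16) and from 2.86 to 9.48 when night fed (median 5.91), a difference of 0.01 with a 95% interval of -0.23 to 0.25. Nr4a1 stood at 0.10 (-0.26 to 0.46). Egr2 was the member with the unadjusted p under 0.05, at -0.41 ± 0.13 (adjusted p = 0.0747). It became a call without any one of 4 libraries, with values of -0.47 to -0.46, the largest without low salt night fed ZT8 replicate 3.

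The difference between these feeding effects, the interaction of salt and feeding time, passed for 5 of 10: Nr4a1 (-1.18 ± 0.25, adjusted p = 0.000697), Arc (-0.98 ± 0.17, adjusted p = 2.63e-05), Atf3 (-0.84 ± 0.17, adjusted p = 0.000423), Fosb (-0.63 ± 0.17, adjusted p = 0.00956) and Ier2 (-0.47 ± 0.15, adjusted p = 0.0244). The share among all tested genes was 19.7%, and 8.75% with this sign. No single library changed that count. Without replicate 3 of each time it was 1, without replicate 1 it was 3, and without the low-scale libraries it was 3. Fos stood at 0.01 with a 95% interval of -0.28 to 0.30.

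Seen by diet, the night fed mice had 3 of 10 higher on high salt: Nr4a1 (0.64 ± 0.18), Atf3 (0.41 ± 0.12) and Ier2 (0.27 ± 0.11, adjusted p = 0.0456), against 35% of tested genes called and 15.4% called higher. None of these calls remained without the 5 low-scale libraries of high salt night fed, in which Nr4a1 ranged from 28.2 to 119 FPKM, against 20.3 to 77.8 in the other 13. Ier2 also lost its call without any one of 20 libraries, at 0.22 to 0.27. The Jun difference, -0.18, became a call (-0.22) without low salt night fed ZT8 replicate 3. With FPKM as deposited Ier2 and Atf3 turned to -0.23 and -0.090, while the median of all tested genes moved from -0.02 to -0.45.

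The day fed mice had 4 of 10 lower on high salt, against 14.8% of tested genes called and 7.05% called lower. Arc was lower at every time with no overlap at any of the 6: at ZT0, for example, it held 3.74, 4.07 and 5.29 FPKM on high salt and 6.35, 6.56 and 6.92 on low salt. Its difference was -0.88 ± 0.12 (adjusted p = 4.16e-07). Nr4a1 fell by 0.54 ± 0.18 (adjusted p = 0.0332), Fosb fell by 0.44 ± 0.12 and Atf3 fell by 0.44 ± 0.12. The Nr4a1 call was lost without any one of 10 libraries, at -0.52 to -0.44, the largest change coming without high salt day fed ZT16 replicate 3. The comparisons of the 4 feeding groups share libraries, so these counts are not independent of each other.

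Within a feeding group, the fed hours were set against the unfed hours: ZT4 and ZT8 against ZT16 and ZT20, with the sign turned for night fed mice. ZT0 and ZT12 were left out, and daytime was taken as light and night as darkness. Within 1 group the fed hours are also the light or the dark hours, so feeding and time of day cannot be told apart by this contrast. Only low salt day fed mice showed calls, 3 of 10 lower in the fed hours, against 34.5% of tested genes called and 11.4% called lower. Atf3 held 94.5 to 217 FPKM in the 6 libraries of the fed hours and 228 to 348 in the 6 of the unfed hours, with no overlap. Its difference was -0.93 ± 0.21 (adjusted p = 0.00166). Arc held 3.40 to 6.44 FPKM when fed and 4.92 to 11.6 when unfed (-0.63 ± 0.21, adjusted p = 0.0185). Ier2 held 145 to 268 against 217 to 380 (-0.45 ± 0.18, adjusted p = 0.0489).

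The Arc call was lost without low salt day fed ZT4 replicate 2 (-0.51), ZT16 replicate 1 (-0.54) or ZT20 replicate 2. The Ier2 call was lost without any one of 13 of the 18 libraries, at -0.49 to -0.33, and with the length score in the model it turned to 0.029. The same contrast called 0 of 10 in low salt night fed (against 9.99%), 0 of 10 in high salt night fed (18.8%) and 0 of 10 in high salt day fed (7.99%). Unadjusted p-values under 0.05 numbered 0, 0 and 2. Without high salt day fed ZT16 replicate 3, Ier2 passed there at -0.60. Whether the low salt day fed effect differs from these was not tested by this contrast.

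Within a feeding group, most members were lowest at the same time. The low points of other genes were not counted, so whether this is particular to the members was not tested. As the members moved together between libraries, they are not 10 separate observations. In low salt day fed mice the lowest mean fell at ZT12, the end of the light phase, for 9 of the 10, all but Ier2. The same 9 were lowest there by the median of the 3 libraries. Egr2 held 1.06, 0.889 and 0.940 FPKM at ZT12 and Atf3 held 126, 107 and 122. At ZT16 the Atf3 libraries held 348, 228 and 259 FPKM, above all 3 of ZT12. In high salt day fed mice the lowest mean fell at ZT4 for all 10, and for 9 of 10 by the median. Replicate 3 at ZT4 was the lowest of that condition's 18 libraries for every member. In low salt night fed mice the lowest mean was at ZT16 for 7 of the 10, and for 8 by the median. In high salt night fed mice it was at ZT8 for Fos, Jun, Egr1 and Egr2 and at ZT20 for the other 6.

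As 24 h rhythms, 3 of 10 passed in low salt day fed mice, against 42.2% of tested genes: Atf3 (amplitude 0.57, peak ZT19.4, adjusted p = 0.00207), Egr2 (0.52, peak ZT22.3) and Arc (0.43, peak ZT20.2). The Arc call was lost without low salt day fed ZT20 replicate 2 (0.36), which made Ier2 a call (0.32), and Egr1 became one (0.36) without ZT20 replicate 3. No member passed without replicate 2 of each time. In high salt night fed mice 5 of 10 passed, against 57%. Fos (0.45, peak ZT22.3), Jun (0.27, peak ZT21.4) and Egr1 (0.38, peak ZT23.5) peaked late at night, and Ier2 (0.40, peak ZT9.9) and Atf3 (0.41, peak ZT10.7) late in the day.

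The low-scale libraries of high salt night fed mice sit at ZT8 and ZT12. Fos and Jun had their lowest means at those times, and Ier2 and Atf3 their highest at ZT12. Without them 1 of the 10 members passed, and 1 passed with the length score in the model. Fos held 255, 210 and 287 FPKM at ZT8 and 360, 469 and 450 at ZT20. In high salt day fed mice 2 of 10 passed, against 31.6%, Ier2 (0.38) and Junb (0.24), with peaks at ZT14.6 and ZT14.7. Without ZT4 replicate 3, ZT0 replicate 3 or ZT16 replicate 1 none passed. Without ZT4 replicate 2 or ZT16 replicate 3, 4 passed.

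**Figure D4:**
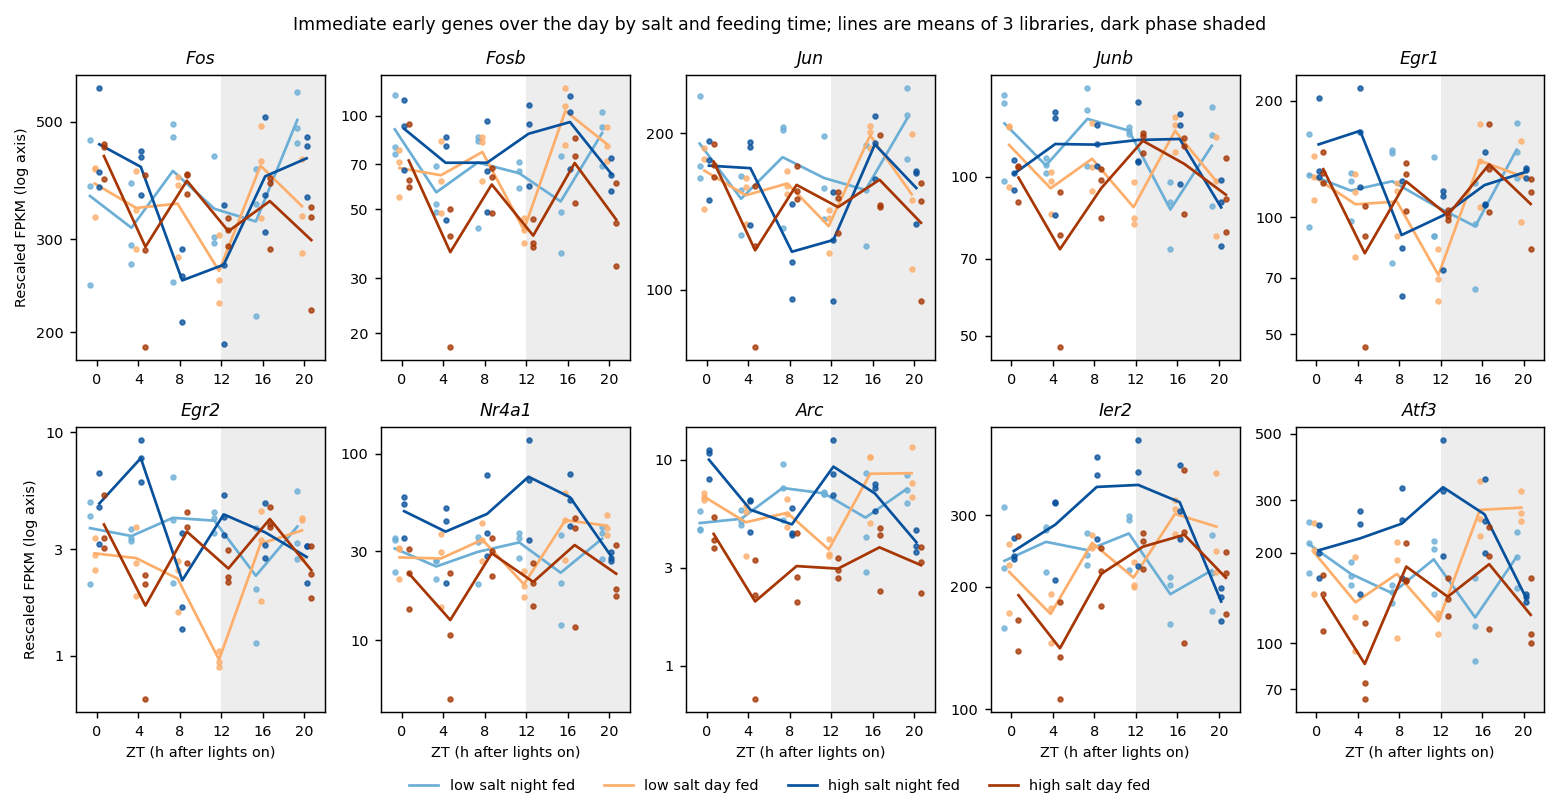
Rescaled FPKM (log axis) of each gene against ZT in the 4 feeding groups; points are libraries, lines join the means of 3 and the dark phase is shaded. The low salt day fed line has its low point at ZT12 for 9 of 10 genes and the high salt day fed line at ZT4 for all 10. The low points of other genes were not counted.

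Whether a pattern followed the clock or the meal was read from 2 tests of the rhythm difference between day fed and night fed mice, one at equal ZT and one with the night fed course moved by 12 h. On low salt 4 of 10 differed at equal ZT (Egr2 0.60, Atf3 0.58, Arc 0.53 and Ier2 0.44, adjusted p = 0.0245 to 0.0476), against 38.6% of tested genes. After the move 1 of 10 differed, Atf3 (0.64, adjusted p = 0.0205), against 23.2%. On high salt 0 of 10 differed at equal ZT, against 32.5%, with 4 at an unadjusted p under 0.05. After the move 4 of 10 differed, against 57.2%: Atf3 (0.66), Ier2 (0.64), Fos (0.47) and Junb (0.33). A miss in either test does not show that the courses were alike. At equal ZT on low salt no member passed without replicate 1, 2 or 3 of each time, nor without low salt night fed ZT20 replicate 2 alone. On high salt after the move no member passed without the low-scale libraries or with the length score in the model.

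The members moved together from library to library. In 32 of the 42 groups of 3 libraries, at least 7 of the 10 genes had their highest value in the same library. In 20 groups it was at least 8, and in 10 groups all 10. These counts were not made for other genes, so whether the members move together more than others do was not tested. Libraries of one time also differ in scale factor and length score. At ZT20 of MR knock out, replicate 3 was highest for all 10 genes, and the mean of the 10 differed by 1.87 on the log2 scale between its highest and lowest library. The lowest library of the series was MR knock out ZT20 replicate 2, where the mean of the 10 was -2.80 against the wild type mean. High salt day fed ZT4 replicate 3 stood at -1.59 and Bmal1 knock out ZT4 replicate 2 at -1.80.

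The members also varied more between libraries than most genes did. The SD between libraries of one time had a median of 0.316 over the 10 in wild type, against 0.184 over all tested genes, and 15.7% of those exceeded the median of the 10. In MR knock out it was 0.757 against 0.254, with 2.63% above. The median ratio of the highest to the lowest of 3 replicates was 1.34 for Junb, the steadiest, and 1.89 for Nr4a1 and Egr2, the least steady. The largest ratio, 217 for Egr2 at ZT20 in MR knock out, rests on the library with 1 estimated fragment.

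**Figure D5:**
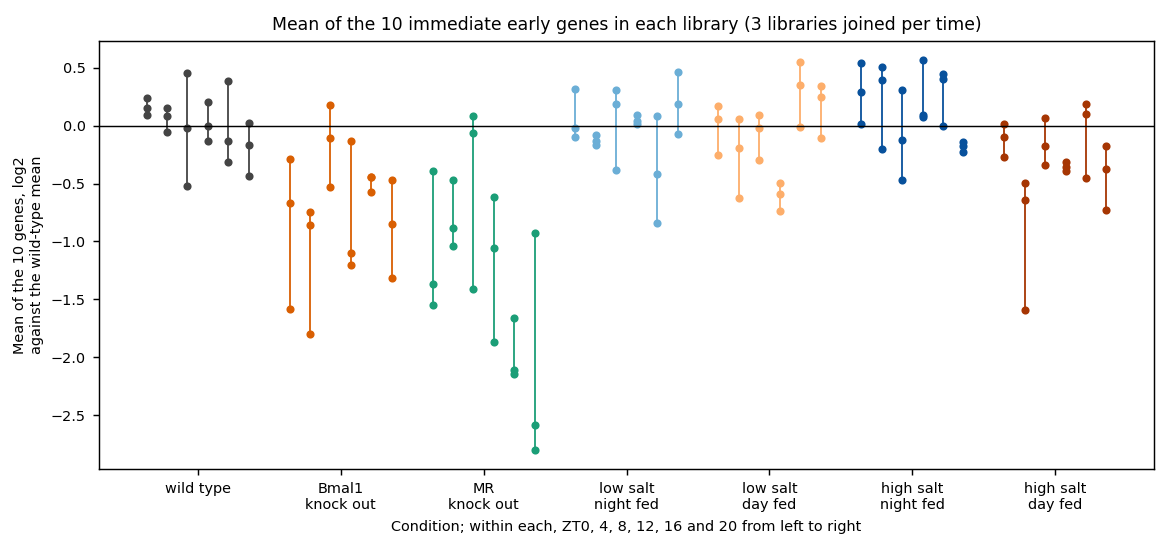
Mean log2 level of the 10 genes in each library against the wild type mean, with the 3 libraries of a time joined by a line. The median length of the lines is 1.20 in MR knock out, 0.95 in Bmal1 knock out and 0.40 in wild type, and 17 of 18 libraries of each knock out lie below 0.

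The genes most like the members were ranked by Pearson correlation with the mean of the 10 over the 42 condition and time means. Each condition's own mean was subtracted first, so r describes courses over the day and not level differences between conditions. Each member was divided by its SD before averaging. Rows whose symbol begins with Gm, ends in Rik or is repeated were left out. The 42 means share the scale factors and tables, so the values are a description. Cyr61, a matrix signalling protein, came first (r = 0.875), then Dusp1, a phosphatase that switches off MAP kinases (0.870), and Ppp1r15a, a stress-induced phosphatase subunit (0.847). Hbegf, a ligand of the epidermal growth factor receptor (0.769), Pnrc1 (0.756), Edn1, which encodes endothelin (0.754), Klf2 (0.748) and Areg, another ligand of that receptor (0.735), followed. The members themselves ran from 0.679 (Fos) to 0.912 (Fosb), each being part of the mean.

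Other early genes were followed in 4 lists of 66 genes, 53 of them tested. In MR knock out 28 were lower and 8 higher than in wild type, where 41.3% of all tested genes were lower and 66% were called. Cyr61 was lower (-1.84 ± 0.24), as were Btg2, an antiproliferative factor (-1.04 ± 0.15), Zfp36, which promotes mRNA decay (-0.97 ± 0.14), and Sik1, a salt-inducible kinase (-0.92 ± 0.13). Gadd45g, a growth arrest gene, was higher (1.58 ± 0.21). In Bmal1 knock out 33 were lower and 11 higher, beside 49.2% lower and 80.3% called among all tested genes, with Thbs1, a matrix protein, at -2.02 ± 0.25 and Nfil3, a transcription factor tied to the clock, at 1.06 ± 0.11.

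In high salt day fed against high salt night fed mice 21 of the 53 were lower and 2 higher, beside 12.9% lower and 27.6% called among all tested genes, with Klf2 at -0.77 ± 0.10, Cyr61 at -0.97 ± 0.16 and Plk2, a kinase, at -0.59 ± 0.07. In low salt 1 of the 53 passed, beside 3.33%: Gadd45g (0.61 ± 0.15, higher when day fed). The genes upstream, 22 tested members of the SRF, CREB and MAP kinase pathways, gave 15 lower and 2 higher in MR knock out (41.3% lower and 66% called among all), and 1 lower and 1 higher in the high salt feeding comparison (27.6% called among all). Srf, which encodes serum response factor, was the lower one there (-0.18 ± 0.05). In the fed hours of low salt day fed mice 13 of the 53 were lower and 8 higher, beside 11.4% lower and 34.5% called among all tested genes. Nfil3 fell by 1.36 ± 0.16, Hbegf fell by 0.84 ± 0.18 and Klf2 fell by 0.77 ± 0.17. Of the 7 other AP-1 and ATF genes tested, 2 were lower, Maff (-0.59 ± 0.15) and Mafk (-0.26 ± 0.10), and 1 was higher. The feedback inhibitors gave 5 higher and 3 lower of 19, and the upstream pathway genes 11 higher and 1 lower of 22.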

How the data were processed

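RNA of mouse colon was sequenced as polyA-selected, strand-specific libraries, per the labels' protocols. Reads were aligned with TopHat2 2.1.1 to mm10 and quantified with Cufflinks 2.2.1, per the submitters' processing notes. The deposited values are taken as FPKM, from the tool and the values; the annotation, the Cufflinks options and whether the 7 tables were normalized together are not stated in the labels or notes used. Level differences between conditions cross separately deposited tables.

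The FPKM of a library were divided by its median-of-ratios factor over the 6966 rows at FPKM of 1 or more in all libraries. Rows with a condition mean of at least 1 were kept (11377 of 24883), and log2(FPKM + 0.5) was fitted with limma 3.58.1 (R 4.3.3, statmod 1.5.0; trend and robust) as means per condition and time. The 54 genotype and 72 feeding libraries were fitted separately, with Benjamini-Hochberg adjustment over all tested rows. A fold change on the log2(FPKM + 0.5) scale understates the change of low genes such as Egr2. Rhythms used a 24 h cosine and sine (F test), and a rhythm difference is the length of the difference between 2 such vectors. The ± beside it is the standard error of the cosine and sine components, not of the length. Python 3.11.15, numpy 2.4.6, pandas 2.3.3, scipy 1.17.1 and matplotlib 3.10.9 did the rest. The fits were tested on simulated data, where 87% to 100% of planted changes of 0.5 or 1 were recovered. The simulated noise was independent between libraries, with 1 SD per gene in all conditions. It therefore did not test the effect of the wider spread in MR knock out.

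The 10 members and the other gene lists were chosen with earlier results of these data known. All 10 members are described; other genes were named as the strongest 3 per list and comparison among those called, and genes most like the members by correlation. Alternatives were 2 other pseudocounts, no filter, FPKM as deposited, quantile normalization, a replicate block, a length score covariate, any difference among the times, the compared conditions alone, leaving out low-scale libraries, and leaving out each library and each replicate number.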

Additional observations from a re-analysis of the deposited data

Results flagged for a closer look

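Differences between groups that were themselves tested and passed (limma, adjusted p under 0.05) are gathered here by gene, as log2 values. The first set asks whether the day fed minus night fed difference depends on salt. It was -1.18 for Nr4a1, -0.98 for Arc, -0.84 for Atf3, -0.63 for Fosb and -0.47 for Ier2. In each of these 5 the day fed mice were lower relative to the night fed on high salt than on low salt.

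The second set compares daily courses. Against wild type, the rhythm differed by 1.30 for Nr4a1 in MR knock out and by 0.59 for Ier2 in Bmal1 knock out. Between day fed and night fed mice on low salt at equal ZT it differed by 0.60 for Egr2, 0.58 for Atf3, 0.53 for Arc and 0.44 for Ier2. With the night fed course moved by 12 h, Atf3 differed by 0.64 on low salt. On high salt after the same move, Atf3 differed by 0.66, Ier2 by 0.64, Fos by 0.47 and Junb by 0.33.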

How the results depend on the processing

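Counts below are members called, of 10. The share of all tested genes called under each alternative is not given beside them, here or in the sections above. That share can differ between settings, so these counts describe how the calls moved and not how the members compare with other genes. Pseudocounts of 0.1 and 1 changed no call or direction in 240 gene results each, and the MR knock out level difference kept 10 calls under all settings run. The cause of the changes below was not tested.

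FPKM as deposited turned 11 gene results: Ier2 in Bmal1 knock out minus wild type (-0.66), Fos (0.39), Jun (0.40) and Junb (0.28) in high salt day minus night fed, Fosb (-0.31), Egr1 (-0.43), Arc (-0.35), Ier2 (-0.23) and Atf3 (-0.090) in high minus low salt night fed, Junb in the interaction (0.39) and Junb in fed minus unfed hours of high salt night fed (0.39). All-gene medians moved under it to -0.89 (Bmal1 knock out level), 0.42 (interaction) and 0.49 (fed minus unfed hours, high salt night fed). The length score covariate turned Egr1 in the Bmal1 knock out level (0.048) and Ier2 in fed minus unfed hours of low salt day fed (0.029).

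With FPKM as deposited the rhythm counts were 6 for Bmal1 knock out and 3 for MR knock out, then 8 for night fed and 0 for day fed mice on high salt. Rhythm differences numbered 4 for Bmal1 knock out, 0 for MR knock out, 2 on low salt at equal ZT, and 7 on high salt both at equal ZT and after the 12 h move. High minus low salt night fed gave 7 and fed minus unfed hours of high salt night fed 5.

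With the length score the Bmal1 knock out level gave 1, its rhythm difference 0, the MR knock out rhythm difference 4 and low salt day minus night fed 1. Rhythms numbered 5 for day fed mice on low salt, and 1 for night fed and 0 for day fed mice on high salt. Rhythm differences by feeding numbered 2 and 2 on low salt and 3 and 0 on high salt (equal ZT, then moved), and fed minus unfed hours of low salt day fed gave 5.

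Without the low-scale libraries the Bmal1 knock out rhythm gave 1 and its difference 0, high minus low salt night fed 0, the interaction 3, the high salt night fed rhythm 1, the high salt rhythm differences 1 and 0, and fed minus unfed hours of high salt night fed 1. Testing any difference among the times gave 6 for the MR knock out rhythm and 0 for its difference, 5 and 4 for the rhythms of low and high salt day fed, 2 for the low salt difference after the move, and 3 and 9 on high salt. Fitting the compared conditions alone (for a rhythm, the condition itself) gave 3 for the MR knock out rhythm and 0 for its difference. It gave 6 and 0 for the rhythms of low and high salt day fed. With no filter the MR knock out difference gave 0, the high salt day fed rhythm 1 and the low salt difference at equal ZT 1. It ended 11 gene calls in all, among them Fos and Junb in the MR knock out rhythm, Egr2 in high salt day minus night fed, Ier2 in high minus low salt night fed, Nr4a1 in high minus low salt day fed and Ier2 in fed minus unfed hours of low salt day fed. Quantile normalization gave 1 for the high salt day fed rhythm, 2 for the low salt and 1 for the high salt difference at equal ZT.

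Same-numbered libraries of different groups had a median correlation of -0.02 over 162 pairs, with 55 above 0.1, so the numbers were not taken to pair samples. A replicate block gave 0 for the MR knock out rhythm difference and 1 for the high salt difference at equal ZT, and 236 of 240 gene results kept their call. The other 4 were Nr4a1 and Fos in those comparisons, and Ier2, which lost its calls in the low salt difference at equal ZT and in fed minus unfed hours of low salt day fed.

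Leaving out 1 library, or 1 replicate number, gave ranges of 8 to 9 for the Bmal1 knock out level, 4 to 7 for high salt day minus night fed, 0 to 1 for low salt day minus night fed, 1 to 4 for high minus low salt night fed, 1 to 4 for high minus low salt day fed and 1 to 5 for the interaction. Rhythm ranges were 0 to 3 for Bmal1 knock out and 0 to 10 for MR knock out, 0 to 4 for day fed mice on low salt, and 2 to 6 for night fed and 0 to 4 for day fed mice on high salt. Rhythm differences ranged from 0 to 1 (Bmal1 knock out), 0 to 3 (MR knock out), 0 to 4 and 0 to 3 (low salt, equal ZT and moved), and 0 to 4 and 2 to 6 (high salt). Fed minus unfed hours ranged from 1 to 3 in low salt day fed and 0 to 1 in high salt day fed. Depth limited Egr2 most, with 28 libraries under 100 estimated fragments, and Arc with 13.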

Other observations

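Daily courses of the heat shock genes are given here as values. In wild type 3 of the 7 passed the rhythm test, against 17.7% of tested genes. Hsph1, a large chaperone, had a rhythm of amplitude 1.47 peaking at ZT16.2 (limma, adjusted p = 5.06e-08), Hspa8, the constitutive chaperone, of 0.84 peaking at ZT15.1, and Hsp90aa1 of 0.76 peaking at ZT17.3. In high salt day fed mice 5 of the 7 passed, against 31.6%, and Hsph1 peaked at ZT2.3 (amplitude 1.15) and Hspa8 at ZT3.5 (0.67), against ZT19.4 (0.92) and ZT17.8 (0.56) in high salt night fed mice. The Hspa8 rhythm differed between these 2 feeding groups at equal ZT by 1.18 (adjusted p = 7.08e-12) and, after a move of 12 h, by 0.37 (adjusted p = 0.00863). The list was chosen with earlier results of these data known, and its courses were not tested against those of the members.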
